A study of Mus musculus with 2 samples.

Results

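The genes described here are 10 genes of MHC class I antigen presentation: the heavy chains H2-K1 and H2-D1, the light chain B2m, the peptide transporter subunits Tap1 and Tap2, the loading factor Tapbp, the immunoproteasome subunits Psmb8, Psmb9 and Psmb10, and the class I transactivator Nlrc5. They were chosen by name, for their function, and all 10 were found among the 20557 protein-coding genes examined. Binding of ELF1, an ETS-family transcription factor of blood cells, was measured by ChIP-seq in CH12.LX, an immortalized mouse B-cell lymphoma line of strain B10.H-2aH-4bp/Wts. The study has 1 group of 2 biological replicates of this 1 line, both with ELF1 antibody, with no second condition and no other genotype or treatment in the labels. The deposited values are peak lists, so the depth of the libraries is unknown, expression of the line's marker genes could not be checked, and no test between groups is possible.

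MHC class I molecules show peptides from inside the cell to CD8 T cells. The immunoproteasome cuts proteins into peptides, TAP1 and TAP2 carry the peptides into the endoplasmic reticulum, and tapasin (Tapbp) holds an empty heavy chain and beta-2 microglobulin (B2m) beside the transporter until a peptide fits. NLRC5 works at the promoters of these genes together with factors that bind the conserved S-X-Y motif, and interferon raises most of them through interferon response elements. ETS factors bind DNA around a GGAA core, and B cells, which also present antigen on MHC class II, carry class I at high levels.

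A gene was said to have a promoter peak when the summit of a peak in the optimal list, the 29086 peaks the authors kept by the irreproducible discovery rate (a filter that compares the rankings of 2 lists), lay within 1 kb of its 5′ end on mm10. Of the 10 genes, 9 had a promoter peak, against 40.3% of all protein-coding genes. H2-K1 was the exception. The promoter peaks were mostly weak: their median signal was 43.1, compared with 97.4 over the 8293 genes with a promoter peak. Of the 9 bound genes, 7 lay below that median, between percentiles 4.51 and 23.8 of all promoter peaks, and H2-D1 and Psmb8 lay above it. Signal is the authors' own value for a peak, in units that are not given, and ranks count from the strongest peak of a list.

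The sequences around the summits are shown first, because the ETS core and the interferon-type word lie side by side in several of them. They come from the deposited mm9 list and the mm9 sequence, since only a genome of that build was used. Promoter peaks of 6 genes are given in order of signal, without that of H2-D1. Capitals mark the GGAA core (TTCC on the other strand) and an interferon-type word, which is GAAA, any 2 bases and GAAA again, on either strand. Windows that touch an untranslated region are cut to 30 bases, which lie at differing distances from the summit. The stretches of the Psmb10 promoter peak and the second Tapbp peak leave out the summit itself.
Tapbp, at an early start shared with Zbtb22 (chr17:34052915-34053015, + strand): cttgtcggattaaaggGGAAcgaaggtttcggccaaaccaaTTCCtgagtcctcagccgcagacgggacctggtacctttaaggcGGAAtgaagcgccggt
Psmb8 (chr17:34335283-34335312, + strand): ctgtggcTTTCGCTTTCacTTCCttgtcgc
Tap2 (chr17:34340564-34340593, + strand): tctgtgagggctcTTCCctggagcccagaa
Tap1 and Psmb9 (chr17:34324636-34324665, + strand): ggtcggcTTTCGGTTTCttcTTCCtctaaa
Psmb10 (chr8:108462005-108462034, minus strand): gggggtGAAAGCGAAAgtaGGAAgcgtccg
The next 2 were added after their values were seen, H2-K1 because its peak is absent from the optimal mm10 list and Tapbp because this second peak lies at its main start.
H2-K1 (chr17:34137541-34137641, minus strand): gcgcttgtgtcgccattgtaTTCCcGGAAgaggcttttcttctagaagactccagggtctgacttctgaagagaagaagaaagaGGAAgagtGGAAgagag
Tapbp, second peak (chr17:34056579-34056608, + strand): GGAAAATGAAAGTGAAAggGGAAgaaaaga
The last pair are the strongest peaks of these genes that lie over 1 kb from every start.
H2-D1 upstream (chr17:35396194-35396294, + strand): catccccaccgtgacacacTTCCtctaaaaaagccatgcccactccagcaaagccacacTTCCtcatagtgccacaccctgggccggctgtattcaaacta
Psmb10 intron (chr8:108460958-108461058, minus strand): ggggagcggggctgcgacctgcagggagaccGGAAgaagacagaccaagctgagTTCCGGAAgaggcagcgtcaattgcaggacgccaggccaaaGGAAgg
The Psmb8, Tap1 and Psmb9, Psmb10 and second Tapbp sequences hold the interferon-type word with a GGAA core at most 3 bases away. The Psmb10 intron sequence holds 2 copies of CCGGAAG, the strong ETS word, and the H2-K1 sequence holds 1.

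The heavy chains are the peptide-presenting subunits of the class I molecule, and the pair measured here differed. H2-D1 lies at chr17:35263094-35267497 on the + strand of mm10. Its promoter peak, 367 bp upstream of the 5′ end at chr17:35262653-35262837, had a signal of 153.6 and rank 3410, the strongest promoter peak of the 10 genes. The strongest replicate 1 entry within 1 kb had a signal of 68.1 and rank 3368, and that of replicate 2 a signal of 88.8 and rank 3339. The 3 ranks were close together, from 3339 to 3410. Other peaks stood further upstream of H2-D1, away from every start. The peak 3772 bp upstream had a signal of 278 and rank 1346, with 144 in replicate 1 and 137 in replicate 2, and exceeded the promoter peak in both. The peak 4714 bp upstream had a signal of 134, with 58.5 in replicate 1 and 76.5 in replicate 2. A weak peak of 20.7 lay 1429 bp inside the gene. The mm9 list had an H2-D1 promoter peak of 327 at rank 2016, the strongest mm9 promoter peak of the 10 genes. Its summit lay 6 bp from the start annotated on that build, where H2-D1 is 4770 bp long, against 4404 bp on mm10. The 367 and 6 bp thus count from different starts.

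H2-K1 lies at chr17:33996012-34000619 on the minus strand and had no promoter peak in the optimal or conservative list. Its nearest optimal peak lay 21545 bp downstream of the 5′ end and had a signal of 38.4. Each replicate's relaxed list, which holds 300000 entries and so peaks and background alike, had an entry 45 bp upstream of the 5′ end. Its signal was 7.67 in replicate 1, at rank 41868, and 11.1 in replicate 2, at rank 35780. The pooled relaxed list had the same position at 20.1 and rank 31241. All of these entries fell outside the 29086 strongest of their lists. The mm9 list of 18804 peaks did have an H2-K1 promoter peak, with a signal of 36.2 and rank 18732, near the end of that list. It lay 313 bp upstream of the start in GENCODE M1, the mm9 annotation. H2-K1 is 4317 bp long there and 4608 bp in RefSeq, and its 5′ end differs. The 45 and 313 bp thus count from different starts and need not be 2 separate sites.

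The labels' strain name carries the a haplotype of H-2, the mouse MHC, while the reference genome is from C57BL/6J, a b haplotype strain. Heavy chain genes differ between haplotypes and also resemble each other. How reads that fit several of these genes, or differ from the reference, were assigned is not given, and its part in the values of H2-D1 and H2-K1 was not tested. The signals of both are therefore uncertain.

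B2m, the light chain that pairs with every heavy chain, lies at chr2:122147687-122153082 on the + strand. Its promoter peak, 154 bp downstream of the 5′ end, had a signal of 24.8 and rank 22363. The entry at the same summit, within 100 bp, had a signal of 7.44 at rank 43875 in replicate 1 and 4.91 at rank 142464 in replicate 2. Neither replicate held this summit among its strongest entries. A second promoter peak, 706 bp upstream, had a signal of 15.8, with 4.03 in replicate 1 and 13.7 in replicate 2. The strongest peak in B2m stood just outside the promoter limit, 1007 bp downstream of the 5′ end, at 33.7. It had 19.9 in replicate 1 and 18.3 in replicate 2, was among the strongest entries of both and was kept in the conservative list. In replicate 2 its summit was placed at 987 bp, inside the promoter limit, and this entry and the upstream one were among the strongest of that replicate. The mm9 list had the downstream peak 1041 bp from the start, with a signal of 40.9, and no B2m peak within 1 kb.

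**Figure D1:**
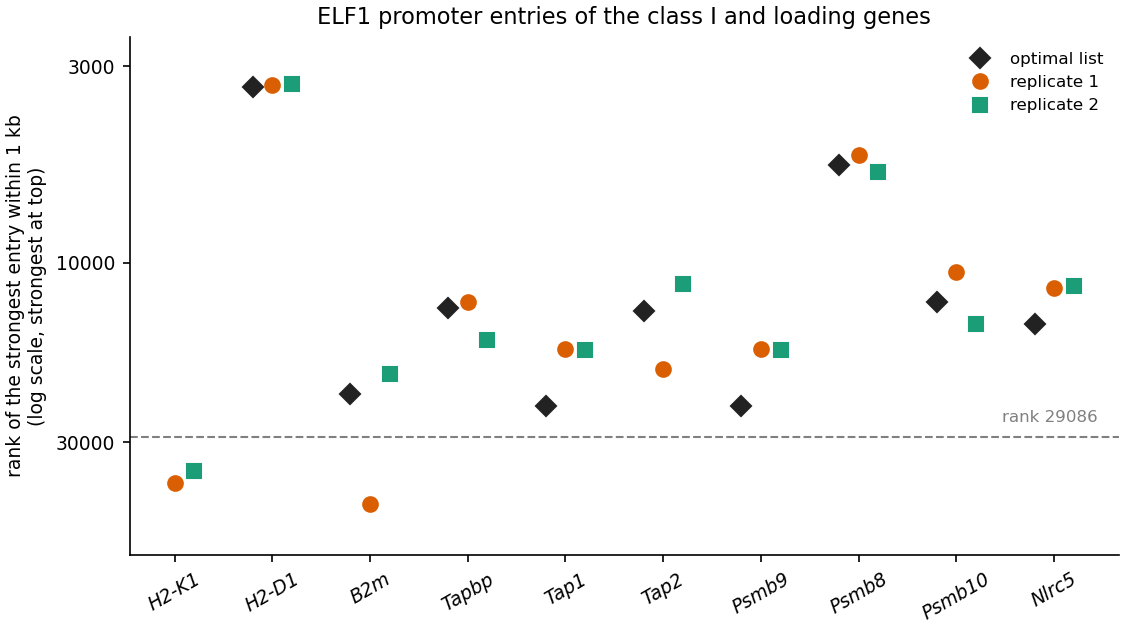
Rank (log scale, strongest at the top) of the strongest entry within 1 kb of each gene's 5′ end, in the optimal list (diamonds), replicate 1 (circles) and replicate 2 (squares); the dashed line marks rank 29086, the length of the optimal list. H2-D1 stands highest in all 3 lists at ranks 3339 to 3410, Psmb8 follows at 5164 to 5719, and H2-K1 and the replicate 1 entry of B2m lie below the line.

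Tap1 and Psmb9 are transcribed away from each other on chromosome 17, Tap1 (34187556 to 34197225) on the + strand and Psmb9 (34182030 to 34187330) on the minus strand, with 226 bp between their 5′ ends. They shared 1 promoter peak, so their calls are not independent. It had a signal of 22.6 and rank 23983, the weakest promoter signal used for any of the 10 genes, and its summit lay 149 bp inside Tap1 and 375 bp upstream of Psmb9. In replicate 2 the summit was at nearly the same place, with a signal of 20.9 and rank 17022. In replicate 1 the strongest entry within 1 kb lay on the Psmb9 side, 141 bp upstream of Tap1 and 85 bp upstream of Psmb9, at 15.2 and rank 16965. At the optimal summit replicate 1 had only an entry of 3.65 at rank 214556. The conservative list placed its peak 20 bp upstream of Psmb9 with a signal of 16.2. Both replicates thus had one of their 29086 strongest entries at this divergent promoter, but not with the same summit. The mm9 peak had a signal of 48.7 and lay 12 bp from a Tap1 start.

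Tap2, the partner of TAP1 in the transporter, lies at chr17:34204479-34216321 on the + strand and had 2 promoter peaks. The stronger lay 858 bp upstream, with a signal of 43.1, 13.7 in replicate 1 and 30.2 in replicate 2. The other lay 26 bp upstream, with a signal of 22.5 and 22.9 in replicate 2, and had no replicate 1 entry within 100 bp. Another peak, of 42.9, stood 1566 bp inside the gene and was higher in replicate 1 (25.4) than in replicate 2 (14.6). The peaks at 858 and 1566 bp thus had entries in both replicates, while their relative heights were not the same. The peak at 26 bp had a matching entry only in replicate 2. On mm9 the strongest Tap2 promoter peak, of 50.8, lay 99 bp from a Tap2 start of GENCODE M1. Tap2 is 12795 bp long there and 11843 bp in RefSeq, so distances on the 2 builds count from different starts.

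Tapbp, which encodes tapasin, lies at chr17:33919478-33929290 on the + strand. Its promoter peak, 152 bp inside the gene, had a signal of 43.7, with 19.8 in replicate 1 and 22.05 in replicate 2. On mm9, GENCODE M1 has an earlier Tapbp start, so the peak of 224 that counts for Tapbp there lies 116 bp from the start of the neighbouring gene Zbtb22. In the optimal list the Zbtb22 promoter peak had a signal of 167 and lay 3449 bp upstream of Tapbp. The mm9 peak at the main Tapbp start had a signal of 47.6. By the main start Tapbp was a weakly bound gene in both builds' lists.

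Psmb8, Psmb9 and Psmb10 are the catalytic subunits that replace Psmb5, Psmb6 and Psmb7 when the immunoproteasome is assembled. Psmb8 lies at chr17:34198195-34201454 on the + strand, and its promoter peak, 162 bp inside the gene, had a signal of 102 and rank 5470. It had 47.0 in replicate 1 and 56.9 in replicate 2. A second Psmb8 promoter peak, 479 bp upstream, had a signal of 55.3, with 19.97 in replicate 1 and 36.1 in replicate 2. Psmb8 was the only one of the 3 subunits above the median promoter signal, and both of its peaks were among the strongest entries of both replicates.

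Psmb10 lies at chr8:105935728-105938392 on the minus strand. Its promoter peak, 300 bp inside the gene, had a signal of 45.6 and rank 12678, with 23.4 in replicate 1 and 24.2 in replicate 2. A far stronger peak lay 1283 bp inside the gene, at chr8:105936982-105937226, outside the promoter limit. That peak had a signal of 283 and rank 1285, with 126 in replicate 1 and 156 in replicate 2. On mm9 its counterpart of 447, at rank 1372, lay 1284 bp from the start, with its summit in a Psmb10 intron and in no exon. Psmb10 therefore carried its strongest ELF1 peak in the gene body, in both replicates.

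The constitutive subunits gave another order. Psmb5 had a promoter signal of 31.1 (17.3 and 13.6 in replicates 1 and 2), below its counterpart Psmb8. Psmb6 had 239 (94.4 and 149), above Psmb9. Psmb7 had 89.5 (44.2 and 44.4), above the promoter peak of Psmb10 and below its intronic peak. In each pair the order of the promoter signals was the same in both replicates.

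Nlrc5 encodes the transactivator of the class I genes and lies at chr8:94434335-94527272 on the + strand. Its promoter peak, 1 bp from the 5′ end, had a signal of 39.8 and rank 14517. The strongest replicate 1 entry had a signal of 21.3 at rank 11688, 104 bp upstream, and that of replicate 2 a signal of 29.9 at rank 11522, 12 bp downstream. Both replicates had Nlrc5 among their strongest entries, although the replicate 1 summit lay just over 100 bp from the optimal one. A peak of 25.8 lay 2694 bp inside the gene. On mm9, GENCODE M1 holds Nlrc5 as a noncoding model of 54510 bp, against a gene of 92938 bp in RefSeq, so the starts used there need not be the 5′ end used on mm10. No mm9 peak lay within 1 kb of the starts of that model. An mm9 peak of 46.6 lay 54 bp from a start of the neighbouring gene 9330175E14Rik, whose start was also the nearest in the RefSeq promoter table to the Nlrc5 promoter peak on mm10 (767 bp). The Nlrc5 3′ end and both ends of Psmb10, also on chromosome 8, were shifted between the builds by the same number of bases. Applied to the Nlrc5 promoter summit of mm10 (94434336), that shift gives 96958236, the summit of the mm9 peak of 46.6. By this shift it is the Nlrc5 promoter peak, although coordinates were not otherwise converted.

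In each replicate's own list, 8 of the 10 genes (all but B2m and H2-K1) had one of the 29086 strongest replicate 1 entries within 1 kb, against 40.8% of all genes. In replicate 2 there were 9 (all but H2-K1), against 41.1%. The 8 genes called in replicate 1 were called in both, against 38.1% of all genes, and the same 8 had a promoter peak in the conservative list, against 39.7%. In the full relaxed lists all 10 had an entry, where the backgrounds were 59.6% in replicate 1 and 59.4% in replicate 2. On mm9, where any annotated transcript start counted, 8 of the 10 had a promoter peak, against 36.9%. B2m had none. Nlrc5 had none at the starts of its shorter M1 model, although an mm9 peak lay at its mm10 5′ end, as given above. The 7 genes called in all of the optimal, conservative, both replicates' and mm9 lists were H2-D1, Tap1, Tap2, Tapbp, Psmb8, Psmb9 and Psmb10. Nlrc5 was called in all of these but the mm9 list, where its M1 starts were used. The share of all genes called in this combination of lists was not computed, so the 7 have no background beside them.

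Around the 10 genes, 63 distinct optimal peaks lay inside a gene or within 50 kb of its 5′ end. All 10 genes had at least 1 such peak, against 73.5% of all protein-coding genes. H2-D1, Tap1, Tapbp and Psmb9 had 13 each, more than 97.6% of all genes, Tap2 and Psmb8 had 12, and H2-K1 had 11. B2m had 6, Psmb10 had 5 and Nlrc5 had 4. The 7 genes with 11 or more are those on chromosome 17, in the MHC, where genes are close together, and 18 of the 63 peaks were counted for more than 1 of the 10 genes. Of the 63, 35 (55.6%) lay within 1 kb of a protein-coding 5′ end, against 31.9% of all optimal peaks. The median signal of the 63 was 50.6, against 39.7 for all optimal peaks, and the part of that differing share in it was not tested. The range was 12.9 to 386.

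By position, 11 of the 63 peaks were at the promoters of the 10 genes (signal 15.8 to 154, median 43.1). Another 24 lay within 1 kb of the 5′ end of another protein-coding gene (19.0 to 386, median 77.3), 3 lay at a start found only in the RefSeq promoter table, and 25 lay over 1 kb from every start (12.9 to 283, median 37.6). The strongest peak in these windows was that of Daxx, a histone chaperone gene, 10019 bp upstream of Tapbp, with a signal of 386 (170 in replicate 1 and 220 in replicate 2). Ddx39b, an RNA helicase gene, had a peak of 348 (176 and 171), 21361 bp upstream of H2-D1. The Spg11 peak, 29321 bp upstream of B2m, had 342 (171 and 174), and the Nfkbil1 peak, 27225 bp upstream of H2-D1, had 334 (154 and 179). The 4 strongest peaks around the 10 genes thus belonged to starts of other genes, and the intronic peak of Psmb10 came next.

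**Figure D2:**
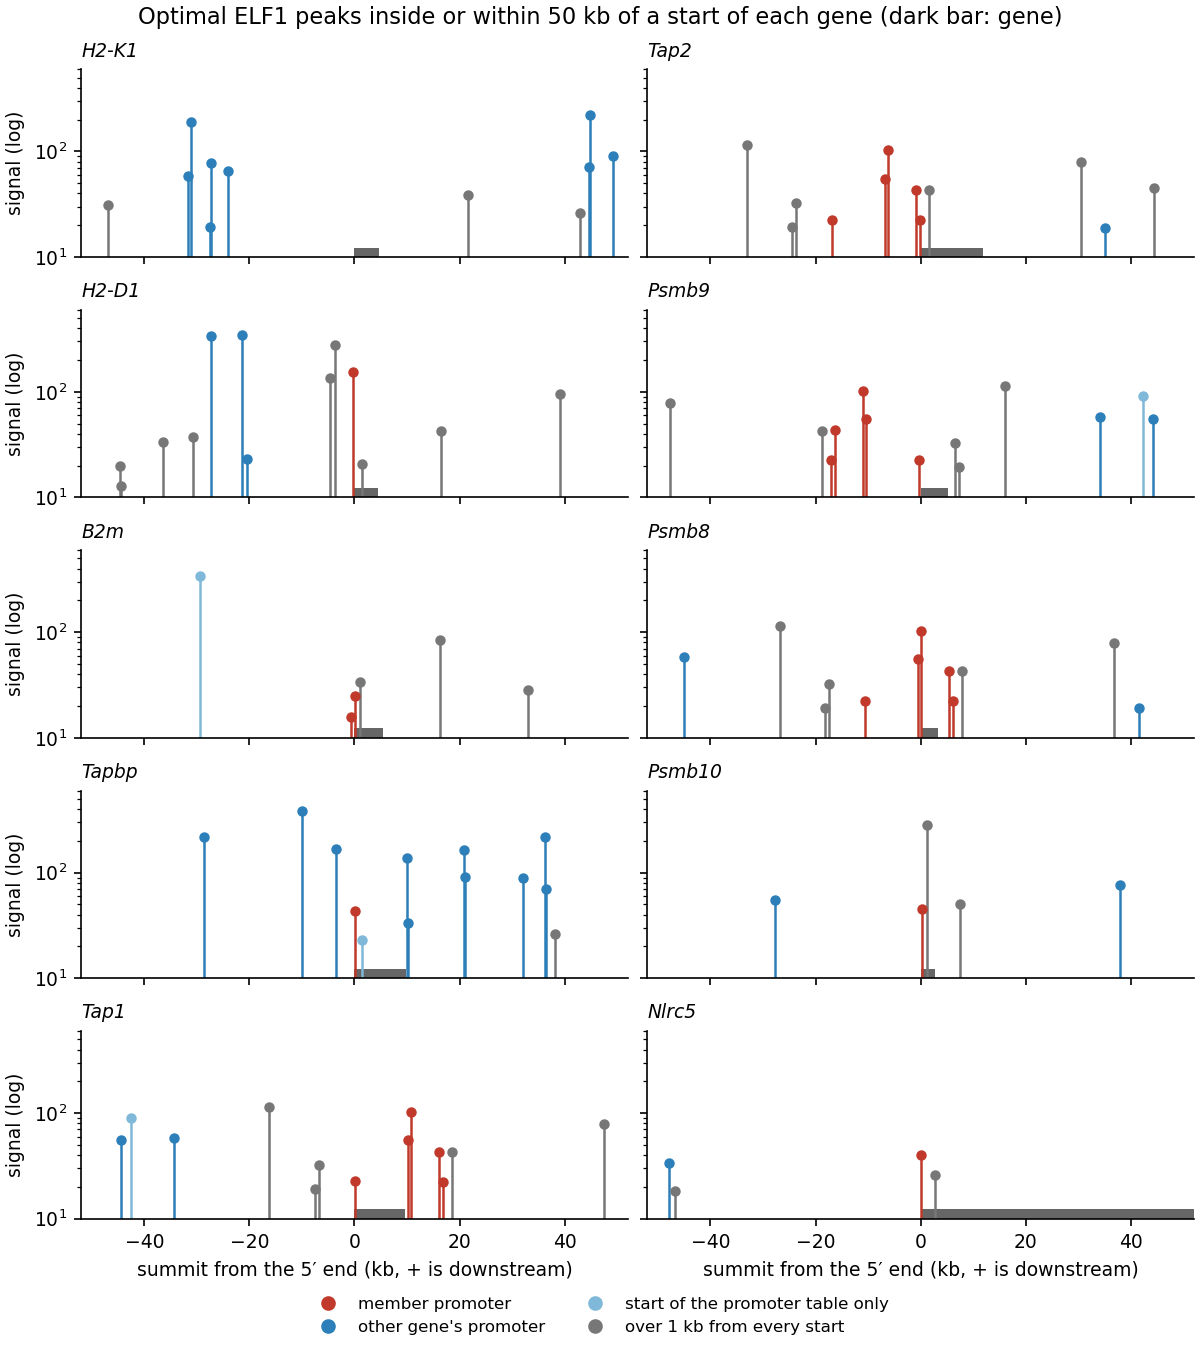
Signal (log scale) of each optimal peak against the distance of its summit from the 5′ end of the gene (kb, positive is downstream), 1 panel per gene, with the gene as a dark bar and colours for the 4 position classes; a promoter peak of a member is red also in its neighbours' panels. The peaks of other genes' promoters stand tallest around Tapbp and H2-D1, and the 283 peak of Psmb10 rises inside the gene beside its 45.6 promoter peak.

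Psmb9, Tap1, Psmb8 and Tap2 lie side by side, and 10 of the 15 distinct peaks around them were counted for all 4. Only the Psmb8 promoter peak, at 102, and a peak 15977 bp downstream of the Psmb9 5′ end, beyond the gene, at 114, passed a signal of 100. The latter had 49.4 in replicate 1 and 67.0 in replicate 2 and lay over 1 kb from every start. A peak 3802 bp from the start of H2-Ob, an MHC class II gene, had 78.6, with 27.6 in replicate 1 and 53.6 in replicate 2. The other promoter peaks of the 4 genes had 22.5 to 55.3.

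**Figure D3:**
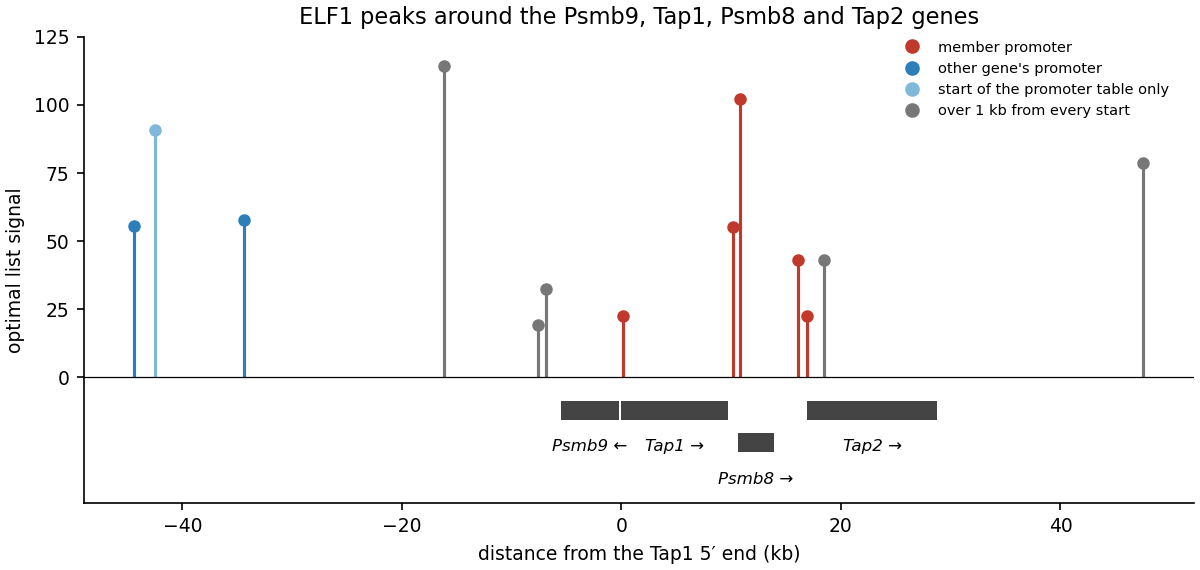
Signal of the optimal peaks (linear axis from 0) around Psmb9, Tap1, Psmb8 and Tap2, against distance from the Tap1 5′ end (kb), with the genes and their direction below. The Psmb8 promoter peak (102) and the peak on the far side of Psmb9 (114) are the tallest, while the peak shared by Tap1 and Psmb9 (22.6) is among the lowest.

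Of the 63 peaks, 44 (69.8%) had a summit within 100 bp among the strongest entries of both replicates, against 62.9% of all optimal peaks. In the full relaxed lists 54 (85.7%) were found in both, against 85.4%, so the share was close to the background. Replicate 1 lacked an entry for 8 peaks and replicate 2 for 1. By class, both replicates' strongest entries held 19 of the 24 peaks at other genes' promoters, 17 of the 25 peaks away from starts and 6 of the 11 promoter peaks of the 10 genes. In the conservative list 52 of the 63 had a match (82.5%), against 78.3% of all optimal peaks. For the 54 peaks in both lists the median ratio of replicate 2 to replicate 1 signal was 1.31, against 1.33 over all optimal peaks, and replicate 2 was higher in 42. The Spearman correlation between the replicates over these 54 peaks was 0.905, a description across peaks of the same libraries, against 0.812 over all optimal peaks.

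**Figure D4:**
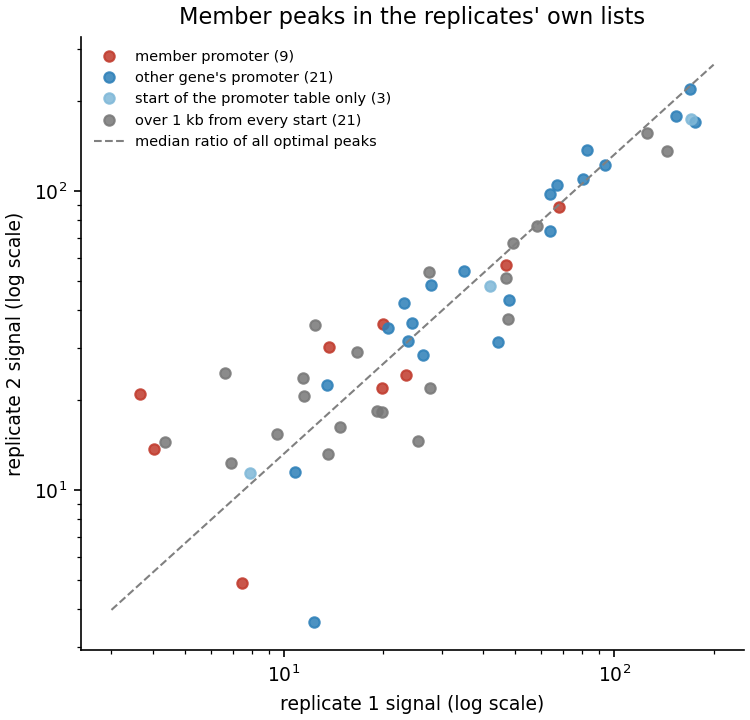
Signal in replicate 2 against replicate 1 (both log scales) for the 54 peaks with an entry in both full lists, coloured by position class; the dashed line is the median ratio of all optimal peaks, 1.33. Strong peaks lie along the line, while weak peaks scatter, among them the Tap1 and Psmb9 peak at 3.65 in replicate 1 and 20.9 in replicate 2.

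The members just inside and outside each limit were as follows. For the promoter limit of 1 kb, peaks at 706 bp (B2m, 15.8) and 858 bp (Tap2, 43.1) counted, and peaks at 1007 bp (B2m, 33.7), 1283 bp (Psmb10, 283) and 1368 bp (Tapbp, 23.2) did not. For the limit of 50 kb, peaks at 47948 bp (Nlrc5, 33.9) and 49132 bp (H2-K1, 89.6) counted. Peaks at 50792 bp (Psmb8, 44.8), 51339 bp (Tap2, 57.8) and 51903 bp (Psmb9, 65.7) did not count for the gene named. The 44.8 peak was still counted for Tap2, and the 57.8 peak for Tap1, Psmb8 and Psmb9.

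The words in the sequences were counted on both strands within 50 bp of each mm9 summit, where a match describes the letters and is not a measured site. Of the 52 mm9 peaks around the 10 genes, 48 (92.3%) held GGAA, against 92.6% of all mm9 peaks. The strong ETS word CCGGAAG was in 12 (23.1%), against 18.8%, and in none of the windows 500 bp to either side. With a T after it the same word was in 6 (11.5%), against 8.16%. It was unevenly placed: 10 of the 28 peaks at other genes' starts held it (35.7%), among them those of Ddx39b, Spg11, Daxx, Kifc1 and Vps52. Of the 10 promoter peaks of the class I and loading genes only that of H2-K1 held it, where 26.3% of all mm9 peaks within 1 kb of a start did. Of the 14 peaks over 1 kb from every start only the Psmb10 intronic peak held it.

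The interferon-type word was in 5 of the 52 peaks (9.62%), against 1.64% of all mm9 peaks. It was in 4 of the 10 promoter peaks, those of Psmb8, of Tap1 and Psmb9, of Tapbp (second peak) and of Psmb10, against 1.16% of all mm9 peaks within 1 kb of a start. It was in 1 of the other 42 peaks, and in no window 500 bp to either side of the 52. The related word GGAA, any 2 bases and GAAA was in 3 of the 52 (5.77%), against 2.77%, among them the Psmb8 promoter peak. In all 4 promoter peaks the word lay at most 3 bases from a GGAA core, 2 bases in Psmb8 and Tapbp and 3 bases in Tap1 and Psmb9 and in Psmb10, as printed above. Of all mm9 peaks 0.404% had the word so close to a core. This spacing was measured after the sequences were seen, and 1 peak serves both Tap1 and Psmb9. GAGGAAG, which overlaps the GGAA word, was in 7 of the 52 peaks (13.5%), against 13.5% of all mm9 peaks, and the peaks at the H2-K1 promoter and at the Tap1 and Psmb9 promoter were among them.

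Words of other class I regulators were counted in the same windows. CCAAT, the NF-Y word, was in 4 of the 52 (7.69%), against 13.6%. TGACG, the CREB and ATF word, was in 5 (9.62%), against 11.5%. The 10-letter kappaB motif was in 2 (3.85%), against 3.21%. In the RefSeq promoters of GRCm38.p6, 250 bases before to 50 after a start, 8 of the 10 genes matched, without Tap2 and Nlrc5. None of the 8 held CCGGAAG there, a word present in 8.86% of the 32851 promoters. H2-K1, H2-D1 and B2m held the kappaB motif (4.51% of all promoters), and B2m held the interferon-type word (3.44%). CCAAT was in H2-K1, H2-D1, Tapbp, B2m, Tap1 and Psmb9 (37.4%), and TGACG was in B2m, H2-K1, H2-D1, Tap1 and Psmb9 (20.8%).

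Genes that work beside these 10 were taken from lists by function, read against the same 40.3% background. Of 22 other class I and class I-like heavy chains 19 were matched and 2 had a promoter peak: Mr1, which presents vitamin metabolites, at 33.5, and H2-M3, which presents formylated peptides, at 32.6. Among the strongest entries H2-M3 had one only in replicate 1 (19.7). The 17 others had no promoter peak, among them Cd1d1, Fcgrt and H2-M10.1. Most of the 17 are heavy chain genes of chromosome 17. The limit on read assignment given for H2-D1 and H2-K1 holds for them too and was not tested. A missing peak there need not mean that ELF1 was absent. Of 15 genes of peptide trimming and endoplasmic reticulum folding 10 had a promoter peak, with a median of 198. They were led by Sec61a1 (511), Canx (454) and Blmh (383), while Calr, Erap1 and Hspa5 had none. Calr had a promoter entry among the strongest of replicate 2 only (30.5), and Erap1 among those of replicate 1 only (10.8). Of 8 other proteasome genes, listed as constitutive subunits and activators although not all of them are, 7 had a promoter peak, with a median of 137. They were led by Psme2 (260), Psmb6 (239) and Pomp (212). Psmb11, which is not one of the constitutive subunits Psmb5, Psmb6 and Psmb7, had none. Of 18 regulators 16 had one, with a median of 98.1, with Nfya (348), an NF-Y subunit gene, and Irf2 (226) among the highest, and Nfyc and Rfx5 had none.

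MHC class II genes are the other antigen-presenting set of B cells. Of 11 such genes 7 had a promoter peak, with a median of 51.5, and the highest were the invariant chain gene Cd74 at 66.8, H2-DMb1 at 57.8 and H2-DMb2 at 55.7. Ciita, the class II transactivator, and the class II chains H2-Aa and H2-Ab1 had none at the 5′ end used. Only 1 5′ end per gene was examined, so other starts of these genes were not. Ciita had 9 optimal peaks inside the gene or within 50 kb. H2-Aa and H2-Ab1 had promoter entries among the strongest of replicate 2 only (14.5 and 15.9). No class II gene reached the median of 97.4 over all bound genes. H2-D1 and Psmb8 did among the class I and loading genes, as did 5 of the other proteasome genes, 7 of the trimming and folding genes and 8 of the regulators.

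**Figure D5:**
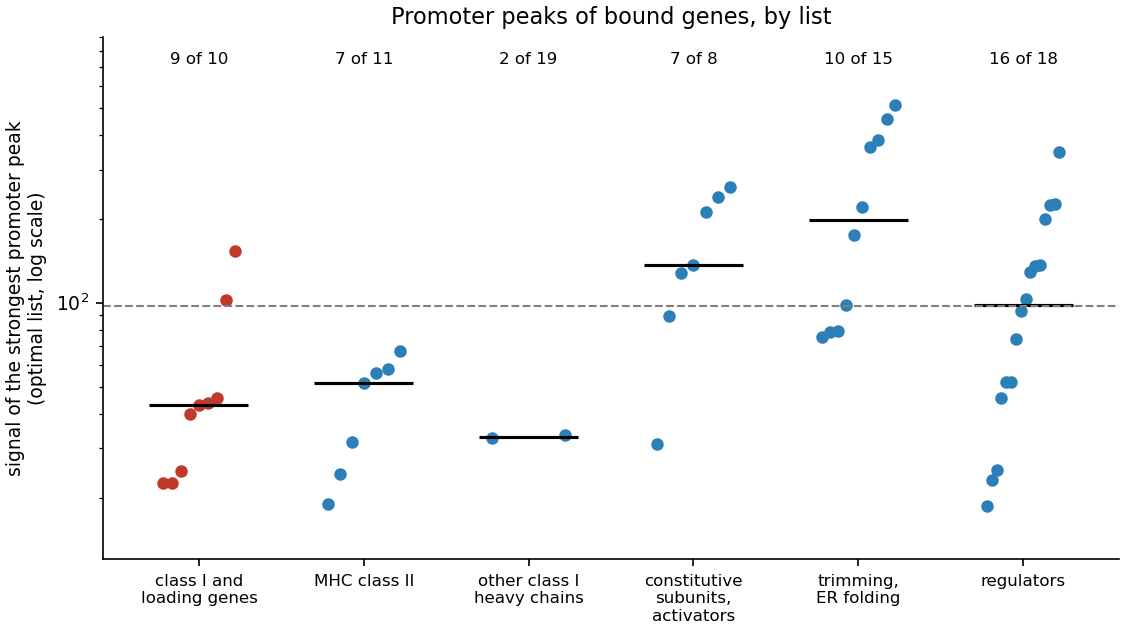
Signal of the strongest promoter peak (log scale) of each bound gene, by list, with the list's median as a bar and the number bound of the number matched above; the dashed line is the median over all bound genes, 97.4. The class I and loading genes and the MHC class II genes lie mostly below the line, while the trimming and folding genes (median 198) lie mostly above it.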

How the data were processed

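ELF1 ChIP-seq peak lists of 2 biological replicates of CH12.LX were used. Per the deposited README text, relaxed lists were made on mm10 against a control, for each replicate alone and for both pooled. The irreproducible discovery rate then gave the optimal and conservative lists, and 1 list was made on mm9. No aligner or peak caller is named in the text used here. The signal in the deposited lists (column 7) is the authors' value, on a scale no source states, and was ranked only within a list, except that replicates were set side by side. No read counts were used, so no p-value was computed.

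Summits came from column 10. On mm10, 5′ ends were those of a RefSeq table of GRCm38.p6, with strand by symbol or synonym from GENCODE M1 (20576 of 21900 protein-coding genes, 20557 of them on chromosomes with peaks). A promoter peak had its summit within 1 kb. Replicate entries were the 29086 strongest of each relaxed list, and summits within 100 bp matched. Words were counted within 50 bp of mm9 summits on the NCBIM37 sequence, with all GENCODE M1 starts. Coordinates count from 1, each on its own build.

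The genes and lists were chosen with earlier results of these data known. Named are all 10 genes, their promoter peaks, the 5 strongest other peaks, and per list the 3 strongest bound and up to 3 unbound genes in alphabetical order. Some items that this rule names are not reported here. Other genes named (Zbtb22, H2-Ob, Psmb5, Psmb7, Kifc1, Vps52, 9330175E14Rik) were added with their values known. Alternatives were other distances, lists, replicates, thresholds and windows. Scripts ran in Python 3.11.15 with pandas 2.3.3, numpy 2.4.6, scipy 1.17.1, pysam 0.24.0 and matplotlib 3.10.9, and the peak assignment was tested on simulated data.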

Additional observations from a re-analysis of the deposited data

How the results depend on the processing

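Of 34 alternatives to the main counts and the median signal, 29 stayed within 1.5 times the main value, or for the median within the spread between replicates. The 63 distinct peaks around the 10 genes became 29 with a 20 kb limit, 106 with 100 kb and 39 in the stronger 50% of the optimal list. The 8 genes with an mm9 promoter peak became 3 in the stronger 50% of that list, and the 12 mm9 peaks with CCGGAAG became 7 with 25 bp on each side of the summit. With only 1 replicate's strongest entries, 8 to 9 genes had a promoter peak, 10 had a peak near and 62 to 64 distinct peaks were found. In the stronger 50% of the optimal list 6 genes had a promoter peak. For the stronger 50% of the optimal or mm9 list the share over all genes was not computed. With a 20 kb limit 9 genes had a peak near. Counting every start of the RefSeq promoter table, chosen after seeing the data, gave 9. For Tap1 and Psmb9 the promoter signal was 16.2 in the conservative list. No paired analysis was possible because there is 1 group and no comparison between groups. Weak peaks limit the precision: without read counts, no interval can be given for any signal.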
